A study of Mus musculus with 6 samples.

Results

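The Krüppel-like factor (KLF) family was followed in mouse fetal liver cells before and after culture with the hormone erythropoietin, which stimulates red blood cell formation. It was taken as the 10 genes Klf1, Klf2, Klf3, Klf4, Klf6, Klf7, Klf9, Klf10, Klf11 and Klf13, chosen by symbol out of the 54232 gene IDs counted. These are part of the 17 KLF genes listed, and they were chosen with earlier results of these data known. All 10 passed the filter on low counts. The cells of both groups came from C57/B6 embryos at E13.5 and lacked Ter-119, the antigen by which late erythroid cells are recognised. The first group, day 0, comprised 3 libraries of the purified cells with no treatment. The second group, 30 h, comprised 3 libraries from 30 h cultures in erythropoietin medium, to which the solvent DMSO was added at 24 h for the last 6 h. Culture time and DMSO cannot be told apart in this comparison, and the parallel cultures with the caspase inhibitor Z-VAD-FMK were not analysed here. The series concerns chromatin and nuclear condensation in late red cell development. The question here is which KLF transcripts changed over the culture.

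KLF proteins are transcription factors that bind CACCC boxes and related GC-rich elements through zinc fingers at the end of the protein. The family holds activators, such as KLF1, the erythroid factor needed for adult beta globin expression, and repressors, such as KLF3, which recruits the CtBP corepressors. In red cell precursors KLF1 switches on genes of globin, heme and membrane biology and also the Klf3 gene, and several family members compete for the same DNA elements.

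All 3 fingers of each member were found in a GENCODE M21 transcript of its gene, as a stretch of 243 coding bases. Of these positions, 83 (34.2%) held the same base in all 10 genes. The stretches of Klf1, the erythroid activator, Klf2, which fell, Klf3, the repressor, and Klf6 and Klf11, which rose most, are shown from 5′ to 3′ with those shared bases in capitals.
Klf1: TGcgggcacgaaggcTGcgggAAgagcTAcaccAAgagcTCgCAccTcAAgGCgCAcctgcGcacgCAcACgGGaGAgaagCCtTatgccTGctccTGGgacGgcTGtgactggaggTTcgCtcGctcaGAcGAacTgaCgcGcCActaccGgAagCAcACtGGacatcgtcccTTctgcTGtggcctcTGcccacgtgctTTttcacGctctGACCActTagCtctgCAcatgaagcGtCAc
Klf2: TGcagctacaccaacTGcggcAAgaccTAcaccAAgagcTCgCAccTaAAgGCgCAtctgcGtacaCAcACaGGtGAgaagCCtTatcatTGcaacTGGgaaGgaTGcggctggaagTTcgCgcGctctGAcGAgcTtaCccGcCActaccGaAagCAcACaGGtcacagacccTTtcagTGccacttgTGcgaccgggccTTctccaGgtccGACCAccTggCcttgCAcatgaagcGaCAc
Klf3: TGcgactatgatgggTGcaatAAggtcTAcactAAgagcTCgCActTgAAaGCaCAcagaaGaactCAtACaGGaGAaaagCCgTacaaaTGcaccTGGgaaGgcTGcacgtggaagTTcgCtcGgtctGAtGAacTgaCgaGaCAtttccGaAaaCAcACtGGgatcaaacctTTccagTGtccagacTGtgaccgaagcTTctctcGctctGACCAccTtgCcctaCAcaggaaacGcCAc
Klf6: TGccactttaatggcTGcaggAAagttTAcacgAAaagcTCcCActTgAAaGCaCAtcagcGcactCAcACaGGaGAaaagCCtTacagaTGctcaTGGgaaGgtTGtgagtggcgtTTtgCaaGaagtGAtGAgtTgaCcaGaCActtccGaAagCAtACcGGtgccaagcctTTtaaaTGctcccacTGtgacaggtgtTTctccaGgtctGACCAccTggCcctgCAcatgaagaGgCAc
Klf11: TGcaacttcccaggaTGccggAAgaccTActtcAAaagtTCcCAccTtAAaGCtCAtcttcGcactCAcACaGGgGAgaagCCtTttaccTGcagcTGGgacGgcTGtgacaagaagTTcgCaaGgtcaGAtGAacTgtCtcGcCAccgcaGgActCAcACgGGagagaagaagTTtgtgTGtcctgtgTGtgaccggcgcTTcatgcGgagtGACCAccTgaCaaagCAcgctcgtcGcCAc
Over the 45 pairs of members, base identity in this stretch ran from 55.6%, between Klf1 and Klf9, to 81.1%, between Klf6 and Klf7. Klf2 and Klf4 shared 78.2% of bases and Klf10 and Klf11 shared 76.1%. The longest run of identical bases between transcripts of any pair of members was 26 bases, between Klf6 and Klf7.

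Library totals ranged from 19241780 to 29949173 counts, and 16150 genes were tested. Nothing in the labels says that libraries of a group came from separate animals or cultures, so the p-values reflect no more than the spread among these samples. Libraries of the 30 h group varied more (biological coefficient of variation 20.5%) than those of day 0 (5.28%). Of the 30 h libraries, replicate 3 stood apart, with chi-square values per degree of freedom of 99.75 against replicate 1 and 55.1 against replicate 2, compared with 12.1 between replicates 1 and 2. The labels call all 6 libraries progenitor cells. The 8 stem and progenitor markers tested were all lower at 30 h, with a summed level of 704 to 749 CPM (counts relative to library size, scaled by TMM, a factor per library that corrects for its make-up) at day 0 and 183 to 217 CPM at 30 h. The 8 erythroid markers tested were all higher, at 1223 to 1378 CPM and then 91873 to 132163 CPM.

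Each of the 10 KLF genes differed between the groups, with 8 higher and 2 lower at 30 h. Klf11, Klf6 and Klf10 rose most, Klf3, Klf13, Klf9, Klf7 and Klf1 rose less, and Klf2 and Klf4 fell. Calls came from edgeR's quasi-likelihood test with Benjamini-Hochberg adjustment over all genes and a threshold of 0.05. Over all genes tested, 34.4% were called higher, 40.1% lower and 74.5% in either direction, so a call alone was common in these data. Libraries of the groups did not overlap for any of the 10 genes, a pattern seen in 79.7% of all genes. At least 2-fold rises were seen for 6 of the 10, and for 20.6% of all genes. The median log2 change of the members was 1.14, beside -0.09 for all genes tested. Of the 6 other KLF genes tested 1 was higher and 5 lower, so these counts and this median depend on which KLF genes were taken. Scaling by library totals only moved the all-gene median to -0.58 and the share of calls that were higher from 46.1% to 29.1%, and left 4 members higher (Klf3, Klf6, Klf10 and Klf11) and 2 lower. With each library's dependence of counts on GC content removed, 9 members were higher and 1 lower. Klf2 was then higher (log2 change 0.38), and Klf1 (1.63) came above Klf10 (1.58). In these bulk samples a change in the share of a cell type and a change of RNA per cell cannot be told apart.

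**Figure D1:**
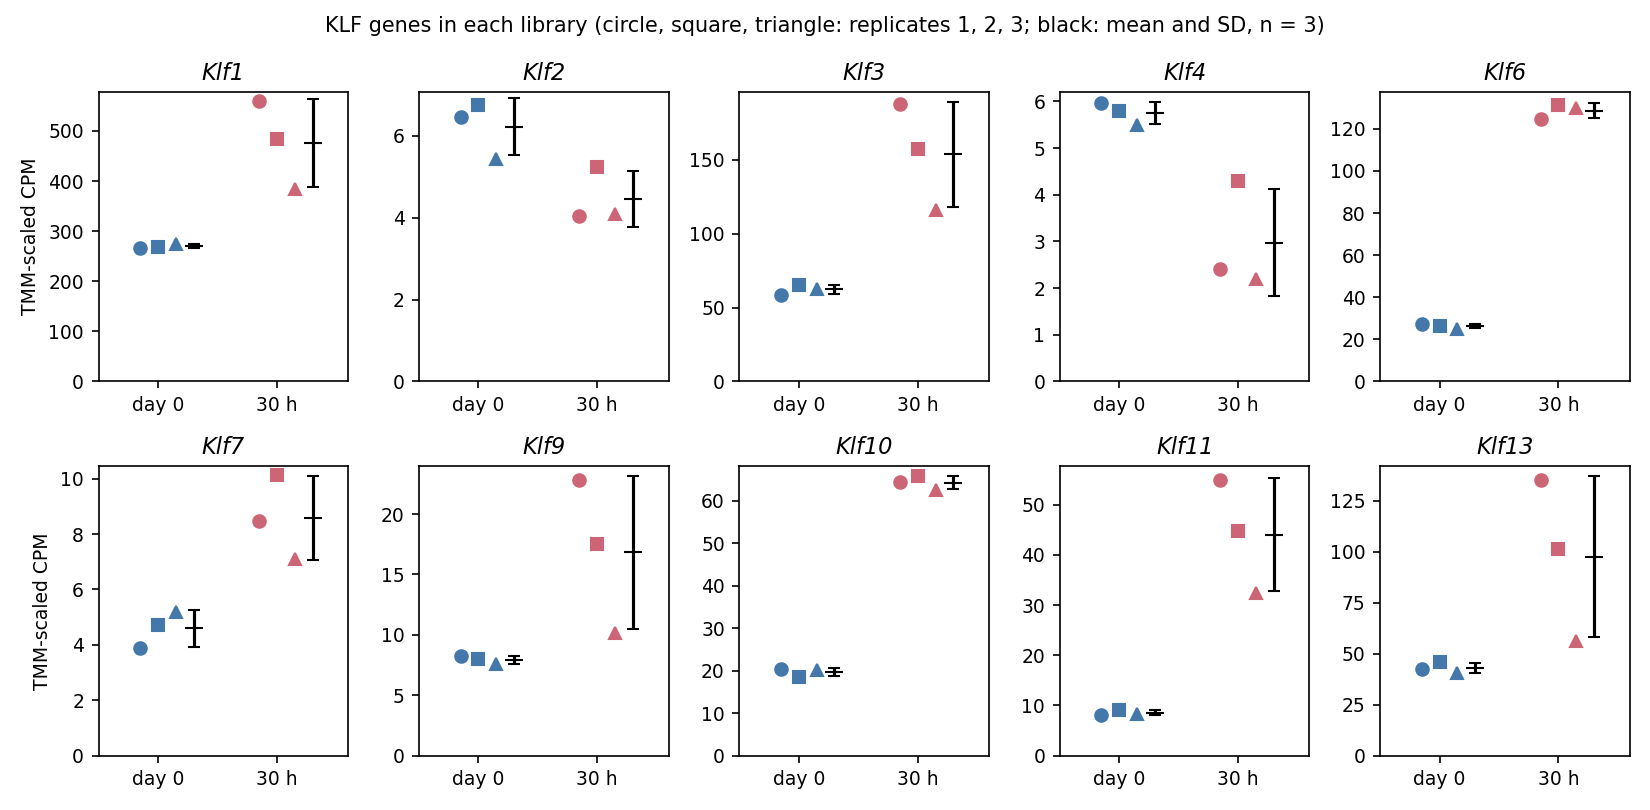
Level of each KLF gene in TMM-scaled CPM (vertical axes, each from 0) in the 3 day 0 libraries (blue) and the 3 libraries at 30 h (red), with circles, squares and triangles for replicates 1, 2 and 3 and black marks for the mean and SD. Klf6 and Klf10 form tight groups at 30 h, at 125 to 131 and 62.6 to 65.7 CPM, while Klf13 spreads from 56.2 to 135 CPM.

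Klf1 encodes the activator that gave the family its erythroid role. Its gene lies on chromosome 8 from 84901928 to 84905291 on the plus strand (mm10). Klf1 stood at 267, 268 and 275 CPM in day 0 replicates 1, 2 and 3. In the 30 h replicates 1, 2 and 3 it stood at 559, 483 and 385 CPM. All 30 h libraries were above all day 0 libraries, and replicate 3 was the lowest of them. The log2 change was 0.82 (SE 0.14, 95% interval 0.50 to 1.14), a 1.76-fold rise (edgeR adjusted p = 0.000925). With scaling by library totals only the log2 change was 0.33 and did not pass (edgeR adjusted p = 0.0694). The Klf1 transcript is GC-rich, at 61.0%, and with each library's dependence of counts on GC content removed the change was 1.63 (edgeR adjusted p = 4.09e-05).

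The bases just before the Klf1 start are shown because they carry both a CACCC element, the class of site that the family binds, and a GATA element, the class bound by the erythroid factor GATA1. They span chr8:84901732-84901927 on the plus strand, from RefSeq's promoter table (GRCm38.p6), and end at the last base before the gene's start in GENCODE. Capitals mark CACCC and TGATAA on either strand.
Klf1 upstream: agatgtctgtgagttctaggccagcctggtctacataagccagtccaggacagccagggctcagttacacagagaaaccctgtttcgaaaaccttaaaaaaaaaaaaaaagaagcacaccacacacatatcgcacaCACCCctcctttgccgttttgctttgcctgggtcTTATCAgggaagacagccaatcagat
Klf3 upstream: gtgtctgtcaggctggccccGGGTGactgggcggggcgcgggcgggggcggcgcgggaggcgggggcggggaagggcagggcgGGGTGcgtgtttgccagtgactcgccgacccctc
The Klf3 stretch, at chr5:64803271-64803387 on the plus strand, is set beside it because Klf3 is known to be activated by KLF1. Windows of 300 bases, from 250 before to 50 after the RefSeq start, were found for 9 of the 10 genes, all but Klf10. CACCC on either strand was present in 6 of the 9 windows, and in 56.7% of the 27025 promoter windows searched. TGATAA was present in 1 of the 9, that of Klf1, and in 9.26% of all. AGATAA, the other GATA spelling searched, was in 0 of the 9 and in 11.4% of all. The GC box CCGCCC was in 7 of the 9 (35.9% of all), and CCAAT in 5 (37.9% of all). CCNCNCCC, a looser spelling of the KLF element that can overlap CACCC and CCGCCC, was in 7 of the 9 (49.1% of all), with 10 matches in the Klf3 window and 9 in that of Klf4. These are matches of letters only.

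Gata1, which encodes the factor that binds GATA elements, rose from 199.7 ± 5.14 to 504 ± 53.0 CPM (SD, n = 3 each; edgeR adjusted p = 1.48e-05) in the same libraries. Of all genes tested 34.4% were called higher. Whether GATA1 or the GATA element had a part in the change of Klf1 was not tested.

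Klf3 encodes the CtBP-dependent repressor (chromosome 5, 64803388 to 64832901, plus strand). In day 0 replicates 1, 2 and 3 its level was 58.7, 65.3 and 62.7 CPM, and at 30 h it was 187, 157 and 116 CPM. The groups were well apart, with replicate 3 again the lowest at 30 h. The log2 change of Klf3 was 1.30 (SE 0.17, 95% interval 0.91 to 1.70; edgeR adjusted p = 0.000219), a 2.47-fold rise. Its change kept its direction and passed in each of the 17 alternative settings. A non-coding gene on the opposite strand, Gm20033, shares 404 exon bases with Klf3 and had between 9 and 20 counts per library, against at least 1847 for Klf3.

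Klf2 and Klf4 encode activators that are best known from blood vessel lining, monocytes and quiescent lymphocytes, and their finger stretches are among the most alike of the family. For Klf2 (chromosome 8, 72319033 to 72321656, plus strand) the day 0 levels were 6.47, 6.75 and 5.43 CPM and the 30 h levels 4.05, 5.25 and 4.09 CPM. The lowest day 0 library and the highest 30 h library nearly met. These values rest on 179 to 234 counts at day 0 and 65 to 88 at 30 h. The log2 change of Klf2 was -0.48 (SE 0.17, 95% interval -0.87 to -0.09; edgeR adjusted p = 0.0297). This was the least secure call of the family: it was lost without day 0 replicate 1 (edgeR adjusted p = 0.0921), day 0 replicate 2 (edgeR adjusted p = 0.102), 30 h replicate 1 (edgeR adjusted p = 0.0898) or 30 h replicate 3 (edgeR adjusted p = 0.0594). The Klf2 transcript is the most GC-rich of the 10, at 61.6%, and with the GC trend removed the change turned to 0.38 (edgeR adjusted p = 0.0463).

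Klf4 (chromosome 4, 55527143 to 55532466, minus strand) stood at 5.96, 5.80 and 5.49 CPM at day 0 and at 2.42, 4.29 and 2.20 CPM at 30 h. Replicate 2 was the highest of the 30 h libraries, and all 3 were below day 0. Its counts were 181 to 211 at day 0 and 35 to 72 at 30 h. The log2 change was -0.96 (SE 0.24, 95% interval -1.52 to -0.39; edgeR adjusted p = 0.00747), and it stayed below 0 and passed in each of the 17 alternatives.

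At 30 h 11 of 11 endothelial markers were lower, with a median log2 change of -3.14, beside 40.1% of all genes called lower. Klf4 also fell, while the smaller fall of Klf2 (-0.48) became a rise of 0.38 with the GC trend removed. The summed level of the endothelial markers went from 252 to 286 CPM at day 0 to 48.7 to 62.0 CPM at 30 h. None of them was at 0 counts in all 30 h libraries. Pecam1, the most abundant of them, went from 49.2 ± 2.25 to 28.4 ± 3.61 CPM, and Stab2, a sinusoidal receptor gene, went from 23.3 ± 3.06 to 0.103 ± 0.0955 CPM (SD, n = 3 each). The list also holds Nos3, Thbd and S1pr1, known targets of KLF2, at log2 changes of -3.45, -2.12 and -1.48. Of 7 lymphoid markers tested 3 were lower and none higher, with a summed level of 21.5 to 22.7 CPM and then 13.1 to 17.2 CPM. Macrophage markers split into 3 higher and 2 lower of 8 (208 to 230 CPM and 152 to 231 CPM). The part of these cell types in the Klf2 and Klf4 results was not tested.

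Klf6 and Klf7 form the pair with the most similar finger stretches, but their levels and changes differed. Klf6, a broadly expressed factor induced early after many stimuli, lies on chromosome 13 from 5861482 to 5870394 on the plus strand. It stood at 27.1, 26.3 and 25.1 CPM at day 0 and at 125, 131 and 130 CPM at 30 h. In TMM-scaled CPM the libraries within each group were close, with a coefficient of variation of 2.70% at 30 h. The log2 change of Klf6 was 2.30 (SE 0.09, 95% interval 2.08 to 2.51; edgeR adjusted p = 8.76e-07), a 4.92-fold rise.

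Klf7, a broadly expressed relative known from the nervous system and from blood progenitors, lies on chromosome 1 from 64029447 to 64122282 on the minus strand. Its levels were 3.87, 4.73 and 5.19 CPM at day 0 and 8.49, 10.1 and 7.11 CPM at 30 h. Replicate 2 was the highest at 30 h, and no 30 h library reached down to day 0. The log2 change was 0.90 (SE 0.18, 95% interval 0.48 to 1.32; edgeR adjusted p = 0.00228), a 1.87-fold rise. With scaling by library totals only it was 0.42 (edgeR adjusted p = 0.0841). A non-coding gene on the opposite strand, Gm26649, shares 3196 of the 8131 exon bases of Klf7 and had 0 counts in all 6 libraries. Strandedness of the counts is not given, so whether reads in the shared bases were counted for Klf7 is not known.

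Klf10 and Klf11 encode the TGF-beta-inducible early factors, repressors that recruit Sin3 corepressors. Klf10 (chromosome 15, 38291463 to 38300706, minus strand) stood at 20.4, 18.6 and 20.1 CPM at day 0 and at 64.3, 65.7 and 62.6 CPM at 30 h. In TMM-scaled CPM it was the most even of the 10 genes at 30 h, with a coefficient of variation of 2.42%. That evenness depends on the scaling: as a length-scaled share of all transcripts (TPM) Klf10 was at 31.3, 32.0 and 24.2 in 30 h replicates 1, 2 and 3. The log2 change of Klf10 was 1.71 (SE 0.10, 95% interval 1.49 to 1.93; edgeR adjusted p = 2.82e-06), a 3.26-fold rise.

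Klf11 (chromosome 12, 24651274 to 24662789, plus strand) was at 8.17, 9.09 and 8.35 CPM at day 0 and at 54.9, 44.8 and 32.4 CPM at 30 h. Every 30 h library was far above day 0, although they spread among themselves. Its log2 change of 2.37 (SE 0.20, 95% interval 1.91 to 2.82; edgeR adjusted p = 1.93e-05) was the largest of the family, a 5.16-fold rise, but its interval overlaps that of Klf6.

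Klf9 and Klf13 encode members of the basic transcription element binding group, which also recruit Sin3. Klf9, a glucocorticoid-induced gene, lies on chromosome 19 from 23141226 to 23168134 on the plus strand. It stood at 8.23, 7.97 and 7.59 CPM at day 0 and at 22.8, 17.5 and 10.1 CPM at 30 h. Klf13, an activator of globin genes in reporter assays, lies on chromosome 7 from 63886351 to 63938915 on the minus strand. It stood at 42.3, 45.9 and 40.7 CPM at day 0 and at 135, 101 and 56.2 CPM at 30 h. Both were lowest in 30 h replicate 3, which lay close to the highest day 0 library without reaching it. The log2 changes were 1.09 for Klf9 (SE 0.26, 95% interval 0.48 to 1.70; edgeR adjusted p = 0.00565) and 1.18 for Klf13 (SE 0.28, 95% interval 0.54 to 1.83; edgeR adjusted p = 0.00504). With scaling by library totals only they were 0.61 (edgeR adjusted p = 0.0724) and 0.70 (edgeR adjusted p = 0.0533).

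In TMM-scaled CPM replicate 3 was the lowest 30 h library for 7 of the 8 genes that rose, Klf6 being the other. Replicate 1 was the highest for 5 of the 8. Without TMM scaling, as a length-scaled share of all transcripts (TPM), Klf6 was also lowest in replicate 3, at 57.8, 60.8 and 47.7 in replicates 1, 2 and 3. How many of all genes follow this order was not counted, so it is not shown to be a trait of KLF genes. At day 0 no member had a coefficient of variation above 20%, while at 30 h 5 of the 10 did, with 40.6% for Klf13, 38.7% for Klf4, 37.8% for Klf9, 25.7% for Klf11 and 23.3% for Klf3. Without 30 h replicate 3 the family gave 8 genes higher and 1 lower, and the median log2 change was 1.41.

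**Figure D2:**
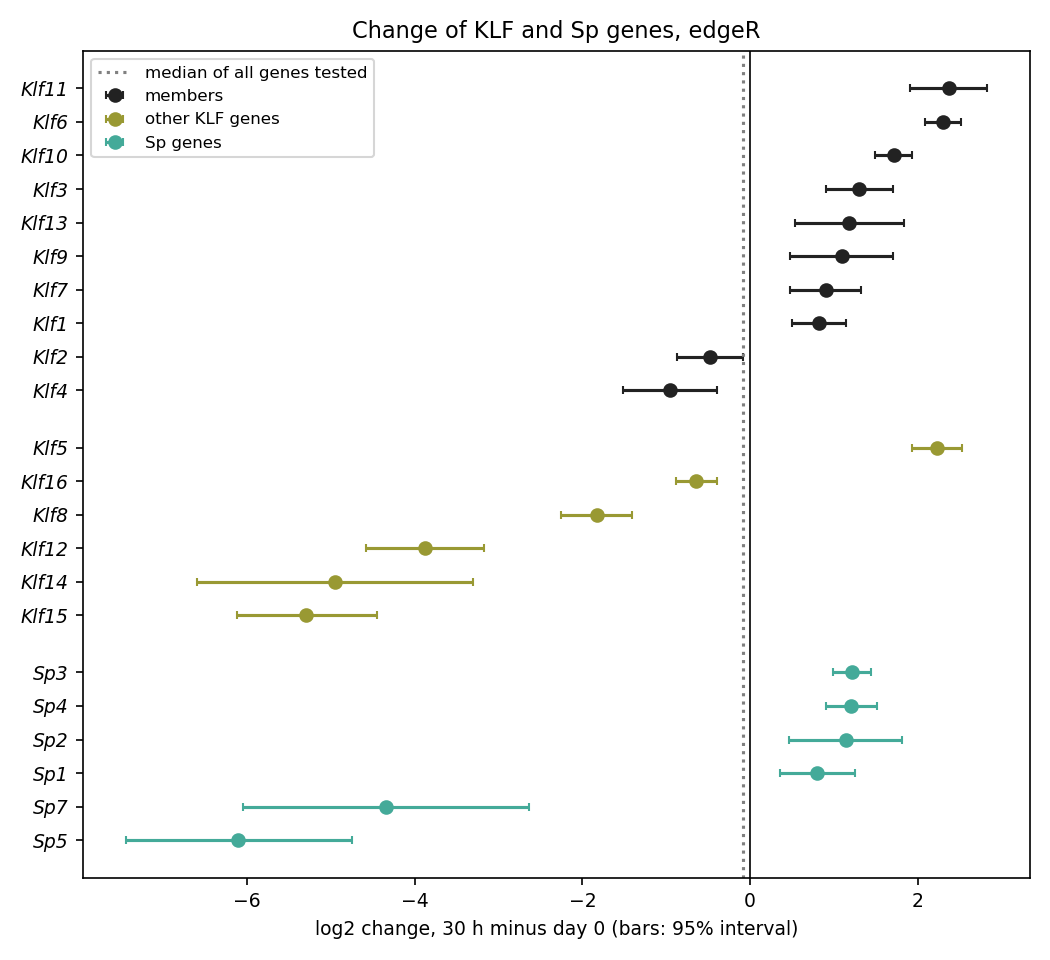
Log2 change from day 0 to 30 h (horizontal axis) with its 95% interval for the 10 KLF genes (black), the 6 other KLF genes tested (olive) and the 6 Sp genes tested (green), with 0 as a solid line and the median of all genes as a dotted line. The 8 KLF genes that rose lie between 0.82 and 2.37, while 5 of the 6 other KLF genes lie below 0.

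To compare levels between genes, counts were divided by the merged exon length and expressed as TPM, a share of all transcripts. At day 0 Klf1 stood at 696 ± 14.6 TPM (SD, n = 3), far above the rest. Klf6 followed at 23.5 ± 0.761 TPM, Klf13 at 22.5 ± 1.51 TPM and Klf3 at 21.9 ± 1.35 TPM, which lie within each other's spread. Klf10 came next at 18.6 ± 0.760 TPM and Klf2 at 13.3 ± 1.498 TPM. Klf11, Klf4 and Klf9 stood at 7.77 ± 0.509, 7.45 ± 0.279 and 6.50 ± 0.233 TPM, the first pair within each other's spread, and Klf7 was lowest at 2.24 ± 0.340 TPM.

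At 30 h Klf1 was still highest, at 597 ± 172 TPM, and Klf6 stood second at 55.4 ± 6.86 TPM. Klf10, Klf3, Klf13 and Klf11 followed at 29.2 ± 4.29, 26.3 ± 8.77, 25.3 ± 12.3 and 19.6 ± 6.94 TPM, and neighbours among them did not differ beyond their spread. Klf9 stood at 6.81 ± 3.15, Klf2 at 4.60 ± 1.10, Klf7 at 2.02 ± 0.565 and Klf4 at 1.88 ± 0.877 TPM. Klf9 and Klf2 lay within each other's spread, as did Klf7 and Klf4, while Klf2 and Klf7 did not. TPM divides by each library's own total of length-scaled counts and carries no TMM scaling. On that scale Klf1 was at 681 to 710 TPM at day 0 and at 407 to 742 TPM at 30 h, so the groups overlapped. Its mean TPM was lower at 30 h, whereas scaling of counts by library totals only gave a log2 change of 0.33. The missing TMM scaling thus does not by itself account for the lower mean.

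Shares within the family do not depend on how libraries are scaled. Klf1 made up 84.7%, 84.5% and 85.5% of the summed TPM of the 10 genes in day 0 replicates 1, 2 and 3, and 78.5%, 77.3% and 76.9% at 30 h. Its share was thus lower in every 30 h library, although its own CPM was higher. These shares were not corrected for GC content, which was 61.0% for the Klf1 transcript and 42.4% for that of Klf6. With the GC trend removed the log2 change of Klf1 was 1.63 and the median of the members 1.28. Whether the lower share of Klf1 holds after such a correction was not tested. Klf6 made up 2.73% to 3.00% at day 0 and 6.11% to 9.02% at 30 h. The share of Klf10 went from 2.15% to 2.37% at day 0 to 3.31% to 4.58% at 30 h, and that of Klf11 from 0.915% to 1.01% to 2.28% to 2.72%. Klf2 went from 1.40% to 1.76% at day 0 to 0.471% to 0.695% at 30 h, and Klf4 from 0.859% to 0.951% to 0.170% to 0.345%. The shares of Klf7, Klf9 and Klf13 overlapped between the groups. Summed over the 10 genes, the level was 804 to 831 TPM at day 0 and 529 to 945 TPM at 30 h, which overlap. With the length of the longest transcript in place of merged exons, the mean share of Klf1 was 81.1% at day 0 and 72.9% at 30 h, and Klf3 stood second in level at day 0. These shares are a description and were not tested.

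**Figure D3:**
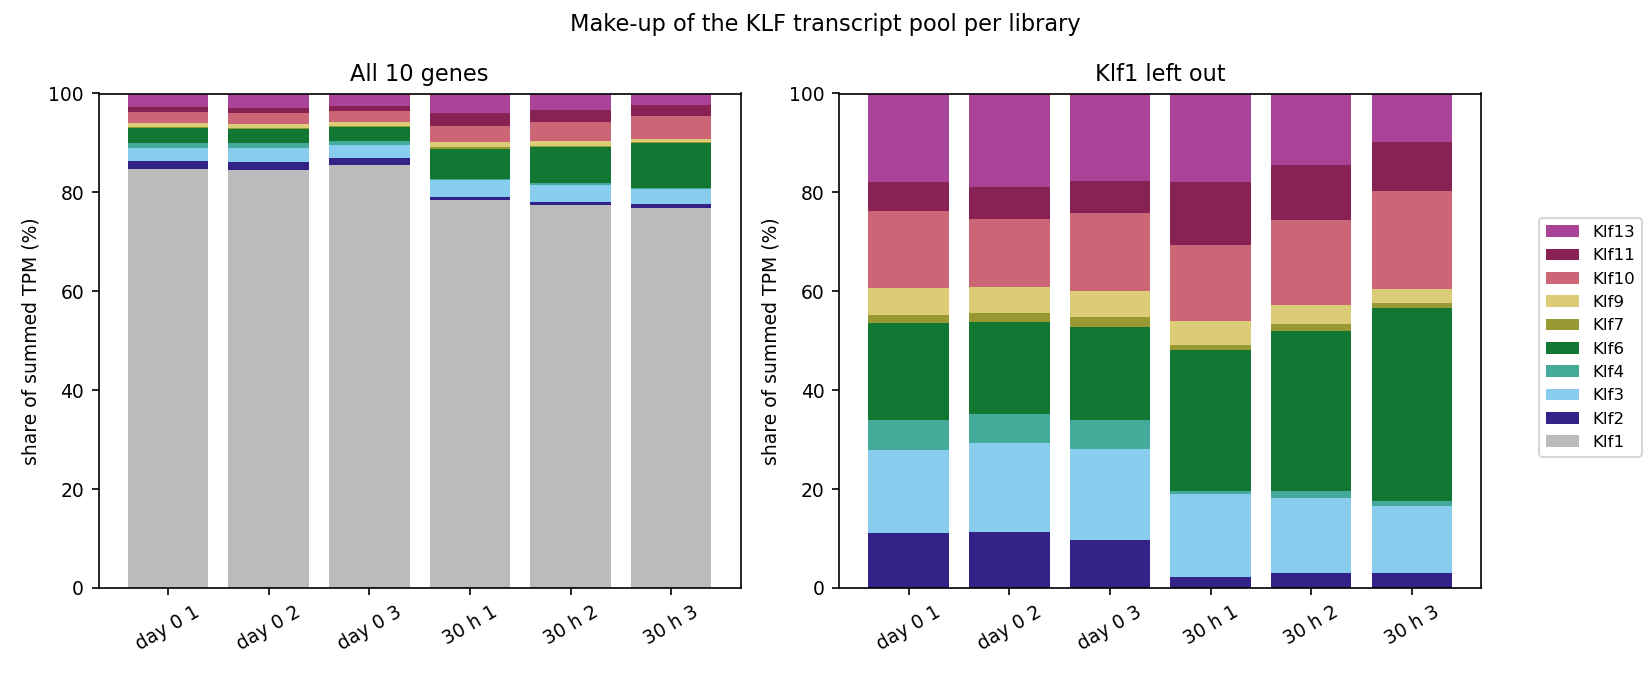
Share of the summed TPM of the KLF genes (vertical axis, percent) in each library (horizontal axis), for all 10 genes on the left and without Klf1 on the right. Klf1 (grey) holds 84.5% to 85.5% at day 0 and 76.9% to 78.5% at 30 h, and on the right Klf6 (dark green) widens from a mean of 19.0% to 33.3%.

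The other KLF genes moved mostly the other way. Of 7 listed, 6 were tested, and 1 was higher and 5 lower, with a median log2 change of -2.85. Over all genes tested the shares were 34.4% higher and 40.1% lower. Klf5, an activator of proliferation in epithelia, rose from 3.36, 2.91 and 3.07 CPM to 14.6, 15.5 and 13.8 CPM (log2 change 2.23, SE 0.13; edgeR adjusted p = 3.31e-06). Klf16, the most abundant of these, went from 67.9 ± 1.49 to 43.4 ± 4.72 CPM (SD, n = 3 each; log2 change -0.64, edgeR adjusted p = 0.000788), but its change was 0.10 with the GC trend removed (edgeR adjusted p = 0.488). Klf15, a metabolic factor of liver and muscle, fell from 216 to 287 counts per library at day 0 to 1 to 6 at 30 h. Klf12 had 228 to 261 counts at day 0 and 4 to 13 at 30 h. Klf14 had 30 to 58 counts at day 0 and 0, 2 and 0 in the 30 h replicates 1, 2 and 3. Klf8, a repressor gene driven by KLF1 and held down by KLF3, went from 4.26 ± 0.230 to 1.19 ± 0.158 CPM (SD, n = 3 each; log2 change -1.83, edgeR adjusted p = 4.44e-05). Klf17 had 0 counts in all libraries.

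Markers of tissues that could be carried into a fetal liver preparation fell in the same libraries as Klf12, Klf14 and Klf15. Hepatoblast markers were lower in 8 of 8 (13633 to 15465 CPM at day 0 and 796 to 2309 CPM at 30 h). Mesenchymal markers were lower in 7 of 8 (1505 to 1918 CPM and 24.2 to 56.9 CPM). Cardiac muscle markers were lower in 5 of 5 (287 to 306 CPM and 25.8 to 54.6 CPM), with Nppa at 0 counts in all 30 h libraries. The part of these cells in the KLF results was not tested.

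Sp factors, the sister family with the same type of fingers, showed 4 higher and 2 lower of 6 tested, with a median log2 change of 0.97. Of all genes tested 34.4% were called higher and 40.1% lower. Sp3, the most abundant, rose from 86.4 ± 0.547 to 201 ± 15.6 CPM (SD, n = 3 each; log2 change 1.21, edgeR adjusted p = 1.42e-05). Sp1, Sp2 and Sp4 had log2 changes of 0.80, 1.14 and 1.20. Sp5, a Wnt target gene, had 47 to 64 counts per library at day 0 and 0 to 1 at 30 h. Sp7, which also fell, had 13 to 19 counts per library at day 0 and 0 to 1 at 30 h. With scaling by library totals only, 2 of the Sp genes were higher.

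Cofactors of KLF proteins split into 7 higher, 5 lower and 8 that did not pass of 20 tested, with a median log2 change of 0.15. Of all genes tested 34.4% were higher and 40.1% lower, with a median of -0.09. Kat2b, the gene of the acetyltransferase PCAF, rose from 14.0 ± 1.06 to 68.0 ± 15.6 CPM (SD, n = 3 each; log2 change 2.28, edgeR adjusted p = 1.46e-05). Among coactivators Ep300 and Crebbp also rose, with log2 changes of 0.95 and 1.18. Smarcc1, a subunit of the remodeling complex used by KLF1, fell from 213 ± 13.47 to 81.2 ± 31.97 CPM (SD, n = 3 each; log2 change -1.39, edgeR adjusted p = 0.002). The corepressors of KLF3 differed from each other: Ctbp2 went down (log2 change -1.0, edgeR adjusted p = 6.93e-05), while Ctbp1, the most abundant of the list, missed the threshold, at 385 ± 8.41 CPM and then 419 ± 62.1 CPM (SD, n = 3 each; edgeR adjusted p = 0.391). Sin3a and Sin3b, the corepressors of KLF9, KLF10, KLF11 and KLF13, rose, with log2 changes of 0.57 and 0.77. Without 30 h replicate 3 the list gave 11 higher, and with scaling by library totals only 4 higher and 10 lower.

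Genes known from the literature to depend on KLF1 rose in 21 of 28 tested and fell in 4, with a median log2 change of 3.07, beside 34.4% and 40.1% of all genes and a median of -0.09. Of 30 listed, 29 matched a gene ID, and Icam4 had 0 counts in all libraries. Hbb-bs, an adult beta globin gene, was the most abundant and rose from 370 ± 44.1 to 79735 ± 23294 CPM (SD, n = 3 each; log2 change 7.75, edgeR adjusted p = 6.91e-07), although its reads cannot be assigned with certainty against those of its near-identical neighbour Hbb-bt. E2f2, a cell cycle regulator, rose with a log2 change of 3.25 and Cdkn2c, a cycle inhibitor, with 3.14. The 4 that fell were Bcam, a blood group adhesion gene (log2 change -3.95), the water channel gene Aqp1 (-2.12), the globin repressor gene Bcl11a (-0.82) and Cd44, an adhesion receptor gene lost as erythroblasts mature (-0.24). Pklr, a red cell glycolysis enzyme gene, rose with a log2 change of 0.93, within the interval of Klf1.

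**Figure D4:**
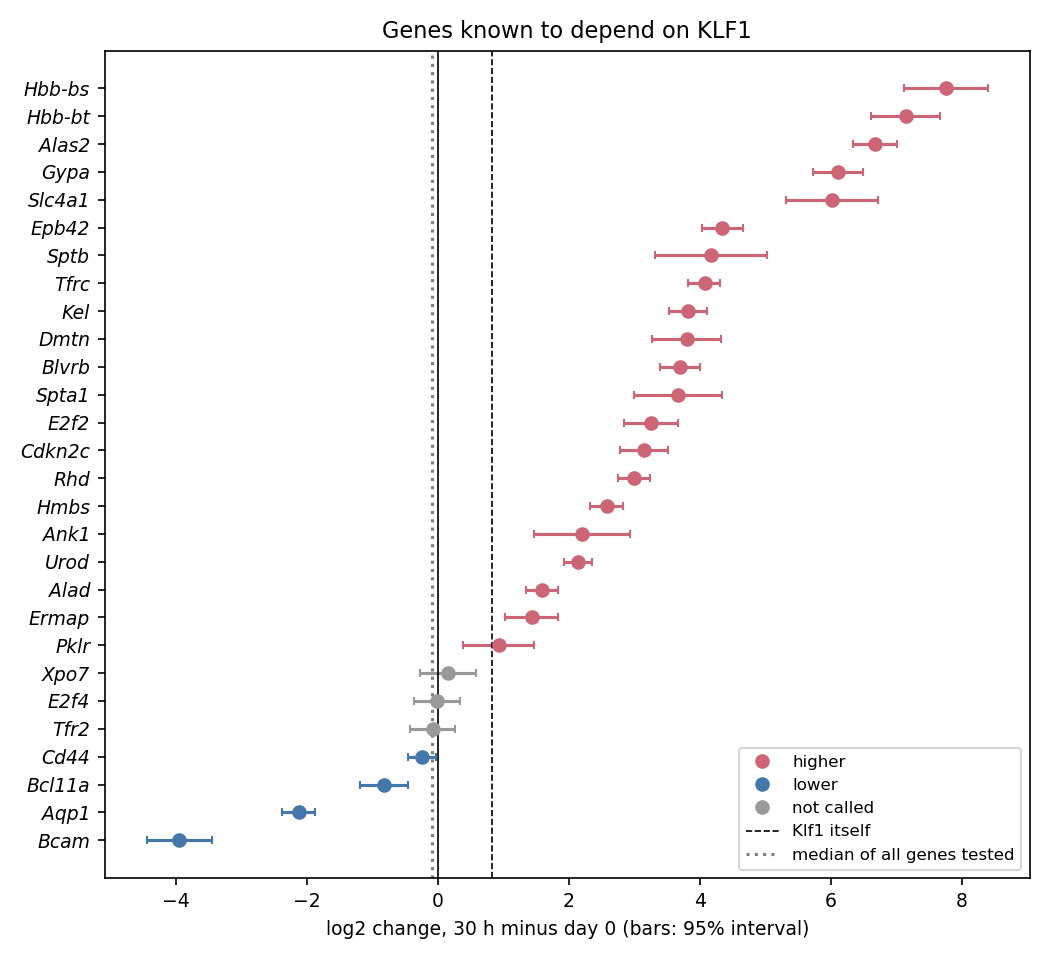
Log2 change from day 0 to 30 h (horizontal axis) with its 95% interval for the 28 tested genes known to depend on KLF1, in red where called higher, blue where called lower and grey where not called, with the change of Klf1 as a dashed line and the all-gene median as a dotted line. Hbb-bs leads at 7.75, and Bcam is lowest at -3.95.

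Inducers that are known to act on KLF genes were read through 3 further lists, beside 34.4% of all genes called higher and 40.1% lower. Immediate early genes, which like Klf2, Klf4, Klf6 and Klf10 respond to stimuli and to cell dissociation, gave 9 higher, 1 lower and 5 that did not pass of 15, with a summed level of 308 to 350 CPM at day 0 and 634 to 720 CPM at 30 h. Atf3 rose from 1.89 ± 0.199 to 41.0 ± 7.45 CPM, Btg2 was the most abundant, at 19.2 ± 0.732 and 259 ± 32.6 CPM, and Fosb fell from 5.59 ± 1.02 to 1.55 ± 0.706 CPM (SD, n = 3 each). Fos and Jun did not pass, at 18.6 and 12.3 CPM and at 56.1 and 57.4 CPM. Their relation to the KLF genes was not tested.

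Glucocorticoid-induced genes, the class to which Klf9 belongs, gave 1 higher, 1 lower and 4 that did not pass of 6. Tsc22d3 rose from 18.8 ± 1.05 to 37.4 ± 1.70 CPM, and Fkbp5, the most abundant, fell from 81.0 ± 2.49 to 34.9 ± 8.81 CPM (SD, n = 3 each). Early genes of TGF-beta family signalling, the class of Klf10 and Klf11, gave 4 higher and 2 lower of 8, with a median log2 change of 0.46. Skil, an inhibitor of SMAD proteins and the most abundant, rose from 17.1 ± 0.858 to 89.6 ± 2.98 CPM, and Ski, another such inhibitor, fell from 64.8 ± 4.99 to 31.9 ± 10.3 CPM (SD, n = 3 each).

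The genes most like a member were found by Euclidean distance of log2 CPM, centred on each gene's mean over the 6 libraries, among 9240 genes with a mean of at least 10 CPM. For Klf1 they were Wac, Tor1aip2 and Golim4, at distances of 0.0444, 0.0589 and 0.0619. For Klf11, the largest rise, they were Stil, Kat2b and Trak2 (0.133, 0.134 and 0.157). For Klf4, the largest fall, they were Irf2bpl, Olfml2b and Mycn (0.183, 0.202 and 0.295). These distances describe likeness over 6 libraries of 2 groups only.

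**Figure D5:**
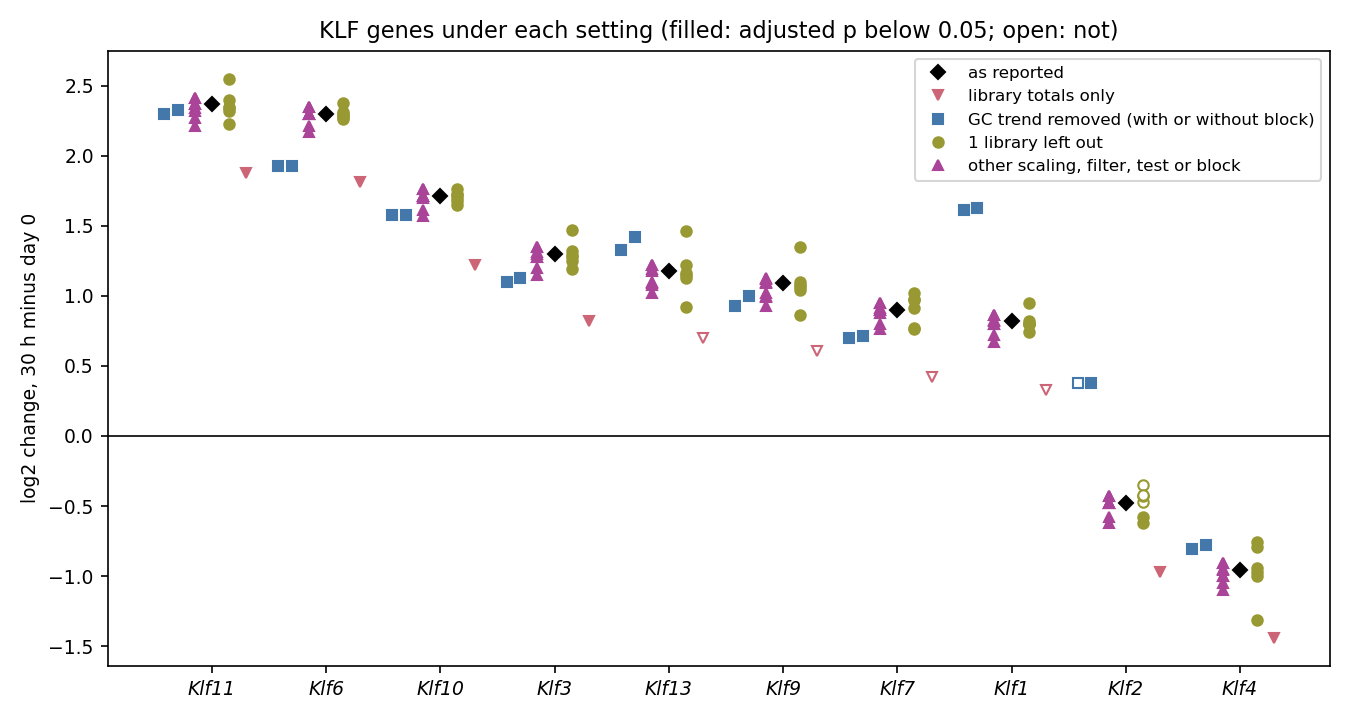
Log2 change from day 0 to 30 h (vertical axis) of each KLF gene under the reported fit and the 17 alternative settings, filled where the adjusted p was below 0.05 and open where it was not. The open points of Klf13, Klf9, Klf7 and Klf1 come from scaling by library totals only, and Klf2 crosses 0 with the GC trend removed.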

How the data were processed

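Total RNA was purified on Qiagen RNeasy columns and sequenced as Illumina libraries, per the labels' protocols. The deposited values are raw read counts per gene, made by the authors. Cutadapt 1.13, STAR, HTSeq 0.6.1p1, DESeq2 and the build mm10 are named in the submitters' processing notes, while settings and strandedness are not given in the sources used here. Of 54232 gene IDs, 54165 were found in GENCODE M21 (GRCm38), and the 67 others held at most 0.00474% of a library's counts. Totals were 19241780 to 29949173 counts.

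Libraries were scaled by TMM and the 3 day 0 libraries were compared with the 3 libraries at 30 h by edgeR 4.0.16's quasi-likelihood test (R 4.3.3) after filterByExpr, with Benjamini-Hochberg adjustment over 16150 genes and a threshold of 0.05. Standard errors were the absolute log2 change divided by the square root of F. TPM used merged exon lengths. Fits were tested on simulated counts. Other fits used DESeq2 1.42.0, limma 3.58.1, other scalings and filters, a GC correction (99.96% of genes had a GC value), a replicate block and each library left out.

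The members and lists were chosen with earlier results of these data known. Named were all 10 members, the largest rise, largest fall and most abundant gene of each list, and the 3 nearest patterns of Klf1, Klf11 and Klf4. An item that this rule names is not reported here. Other genes were named for their known role after their values were seen. Promoter sequences are RefSeq's (GRCm38.p6) and finger stretches GENCODE's.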

Additional observations from a re-analysis of the deposited data

How the results depend on the processing

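Of 170 comparisons of a KLF gene with an alternative fit, 160 kept their direction and side of the threshold, 8 lost the call and 2 reversed. Scaling by library totals only lost the calls of Klf1 (log2 change 0.33), Klf7 (0.42), Klf9 (0.61) and Klf13 (0.70), and it lowered the number of all genes called higher to 3601. Klf2 reversed with the GC trend removed (0.38) and with the GC trend removed with the replicate block (0.38), and leaving out 1 library at a time gave it -0.62 to -0.35. Replicate numbers are shared by the groups, but samples with the same number did not deviate together (correlations -0.105, 0.105 and -0.0293). Pairs with different numbers gave correlations from -0.108 to 0.141. With 3 libraries per group these values cannot show whether a number marks a shared preparation. With the replicate block, 8 KLF genes were higher and 2 lower, and all genes gave 5254 higher and 6277 lower. Of the 238 comparisons of list counts, 221 stayed within 1.5 times and 17 moved. With library totals only, 2 Sp genes were higher, 4 cofactor genes higher and 10 lower, 6 immediate early genes lower and 3 glucocorticoid genes lower. A filter at a mean of 10 counts left 1 Sp gene lower. Immediate early genes lower numbered 3 with upper quartile scaling, 2 without the filter on low counts, 2 with the replicate block, 2 with the GC trend removed with the replicate block, and 1 to 2 with a library left out. Glucocorticoid genes higher numbered 2 with the GC trend removed, 2 with the block added, and 1 to 2 with a library left out. Cofactor genes higher ranged from 7 to 11 with a library left out. With longest transcripts the share of Klf1 was 81.1% at day 0 and 72.9% at 30 h. Beyond construction (fewer genes or samples), the cause was not tested. Depth limits Klf4, with 35 to 72 counts at 30 h, and Klf2, with 65 to 88.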

Other observations

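Markers of other blood lineages moved in mixed directions in the same libraries. Of 6 megakaryocyte markers 1 was higher and 4 were lower, with a summed level of 562 to 664 CPM at day 0 and 572 to 966 CPM at 30 h, and Pf4, a platelet chemokine gene, was both the most abundant and the one that rose. Of 7 granulocyte markers 2 were higher and 3 lower, with a summed level of 3137 to 3242 CPM at day 0 and 3637 to 5658 CPM at 30 h. S100a9, a neutrophil calcium-binding protein gene, was among those that rose and Ly6g, a neutrophil surface antigen gene, among those that fell.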
